A study of Danio rerio with 12 samples.

Results

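The zebrafish miRNAs miR-99, miR-100 and miR-125 were followed from the uninjured caudal fin to the regenerating fin. They were picked out by name, as the rows of the small RNA table whose names start with miR-99, miR-100 or miR-125. The rule uses no values, but earlier results of these data were known when it was set. The rule found 5 of the 148 miRNAs in the table: miR-99-1-5p, miR-100-1-5p, miR-125a-2-5p, miR-125b-1-5p and miR-125c-5p. All 5 come from the 5p arm of their precursors. The study took caudal fin tissue of adult Ekkwill zebrafish, without a transgene or drug beyond the anaesthetic MS222. Tissue came from the uninjured fin at 0 days post-amputation (0 dpa) and from the regenerate at 4 dpa. There were 3 small RNA libraries and 3 polyA+ mRNA libraries for each day, and per the study's methods each replicate held tissue of several fins. Neither the age nor the sex of the fish was given in the sources used here, and nothing in the labels ties a small RNA library to a given mRNA library.

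A miRNA guides an Argonaute protein to messenger RNAs, mostly through its seed, the stretch near its 5′ end that pairs with the target. miR-99 and miR-100 are ancient relatives of the miR-10 family, and published targets include the kinase mTOR, the receptor IGF1R and, in the zebrafish heart, the chromatin remodeller smarca5 and the farnesyltransferase subunit fntb. miR-125 is the vertebrate counterpart of the worm miRNA lin-4, and published targets include the RNA-binding proteins LIN28 and TRIM71 in mammals. Their genes lie beside let-7 genes in many animals. Both let-7 and miR-125 are known for rising as embryonic tissues mature.

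The mature sequences are shown because they sort the 5 miRNAs into only 2 seeds and because several differ so little that the division of tags between rows is uncertain. They were taken from the study's supplementary sequence file, written 5′ to 3′ as DNA, with the seed (bases 2 to 8) in capitals.
miR-99-1-5p: aACCCGTAgatccgatcttgtg
miR-100-1-5p: aACCCGTAgatccgaacttgtg
miR-125a-2-5p: tCCCTGAGacccttaacctgtg
miR-125b-1-5p: tCCCTGAGaccctaacttgtga
miR-125c-5p: tCCCTGAGaccctaactcgtga
The relatives and neighbours used for comparison were these, chosen as the most abundant miR-10 row and the let-7 rows whose genes lie beside the 5.
miR-10b-1-5p: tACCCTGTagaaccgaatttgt
let-7a-1-5p: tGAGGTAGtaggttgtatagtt
let-7c-1-5p: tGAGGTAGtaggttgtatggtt
let-7d-1-5p: tGAGGTAGttggttgtatggtt

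Counting positions from 1 at the 5′ end, miR-99 and miR-100 differed by the single substitution T16A, and miR-125b and miR-125c by T18C. Both changes lie outside the seed. miR-125a shared its first 13 bases with miR-125b and was 3 edits away from it. No row other than miR-99 and miR-100 carried the seed ACCCGTA, and no row other than the 3 miR-125 rows carried CCCTGAG. The miR-10 rows have a seed of their own, and miR-100 was 5 edits from miR-10b. With 1 base between miR-99 and miR-100, and 1 between miR-125b and miR-125c, the division of tags within each of these pairs of rows is uncertain.

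In the RefSeq annotation of the GRCz12tu assembly, used here for gene names and gene order only, the miRNA genes fell into 6 groups of neighbours. A pair of groups held miR-100, let-7a and miR-125b. Another held miR-99, let-7c and miR-125c, and another miR-99, let-7c and miR-125b. The last 2 groups held let-7d and miR-125a. In 4 of the 6 groups no other annotated gene lay between the miRNA genes, and in the other 2 a single uncharacterised gene did. The 3 genes for miR-125b make the same mature sequence, as do the 2 genes each for miR-99, miR-100 and miR-125a, so a tag cannot be assigned to a locus. Of the 6 let-7a genes, only 2 lie beside one of the 5.

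The small RNA libraries held between 375761 and 1043151 tags over the 148 miRNAs, and the 5 miRNAs together took between 4734 and 14385 of them. miR-21 alone held between 8.77% and 12.7% of tags at 0 dpa and between 64.1% and 71.1% at 4 dpa. The deposited values were log2(tag count + 1) without scaling, and levels are given here after a shift per library, in units called scaled log2(tag count + 1). Replicates of the same day always differed by more than sampling noise, with a chi-square per degree of freedom of at least 31.8. The 95% interval (Clopper-Pearson, which covers counting error alone because tags were not marked by molecular identifiers) was at most ± 3.54% of the value for miR-100 and at most ± 14.3% for miR-125c, the least abundant of the 5. Pooled over all miRNAs, differences between libraries of a day were thus larger than counting error, a sum that does not speak for each miRNA. For the scaled levels of miR-99 at 4 dpa they were not. Its counting interval was ± 9.05% to ± 9.54%, and its 3 scaled levels (9.314, 9.306 and 9.354) lay closer together than that. As a share of all tags, miR-99 in replicate 2 of 4 dpa (0.0460%, 95% interval 0.0419% to 0.0505%) lay below replicate 1 (0.0619%, 0.0565% to 0.0677%). Those intervals did not overlap, so the closeness holds on the scaled levels only. In the mRNA libraries the tissue carried the epidermal keratin krt5 at 33519 to 40046 CPM (reads scaled to library size) at 0 dpa, and the actinotrichia gene and1 at 1.21 to 1.74 CPM at 0 dpa and 1112 to 1565 CPM at 4 dpa.

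miR-100-1-5p was the most abundant of the 5, at place 15 of the 148 miRNAs by mean level. Its levels were 12.30, 11.83 and 12.36 in the 3 libraries of 0 dpa and 12.51, 12.10 and 12.31 in those of 4 dpa, from 6554, 9210 and 4765 tags and 4417, 3081 and 3362 tags. It made up between 62.6% and 66.8% of the tags of the 5 in every library.

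The next levels belonged to miR-125b-1-5p and miR-125a-2-5p, at places 38 and 39. Levels of miR-125b were 9.88, 9.37 and 9.86 at 0 dpa and 10.31, 9.49 and 9.91 at 4 dpa (1221, 1668, 845 tags and 956, 503, 637 tags). Levels of miR-125a were 9.60, 9.47 and 10.07 at 0 dpa and 10.24, 9.51 and 9.84 at 4 dpa (1009, 1786, 975 tags and 913, 510, 608 tags). The order of these neighbours could not be set: the log2 ratio of miR-125b to miR-125a within a library was −0.01 ± 0.25 at 0 dpa and 0.04 ± 0.05 at 4 dpa (SD, n = 3), with either of them ahead depending on the library.

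miR-99-1-5p followed at place 53. Its levels were 8.88, 8.56 and 8.40 at 0 dpa and 9.31, 9.31 and 9.35 at 4 dpa (614, 953, 306 tags and 480, 444, 433 tags). The lowest level at 4 dpa lay above the highest at 0 dpa, so the days did not overlap. miR-125c-5p was the lowest at place 67, with 8.45, 8.25 and 8.06 at 0 dpa and 8.58, 8.13 and 8.63 at 4 dpa (455, 768, 242 tags and 288, 196, 261 tags). miR-99 held more tags than miR-125c and fewer than miR-125a and miR-125b in each of the 6 libraries. All 5 sequences have 22 bases, so length does not enter this order.

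**Figure D1:**
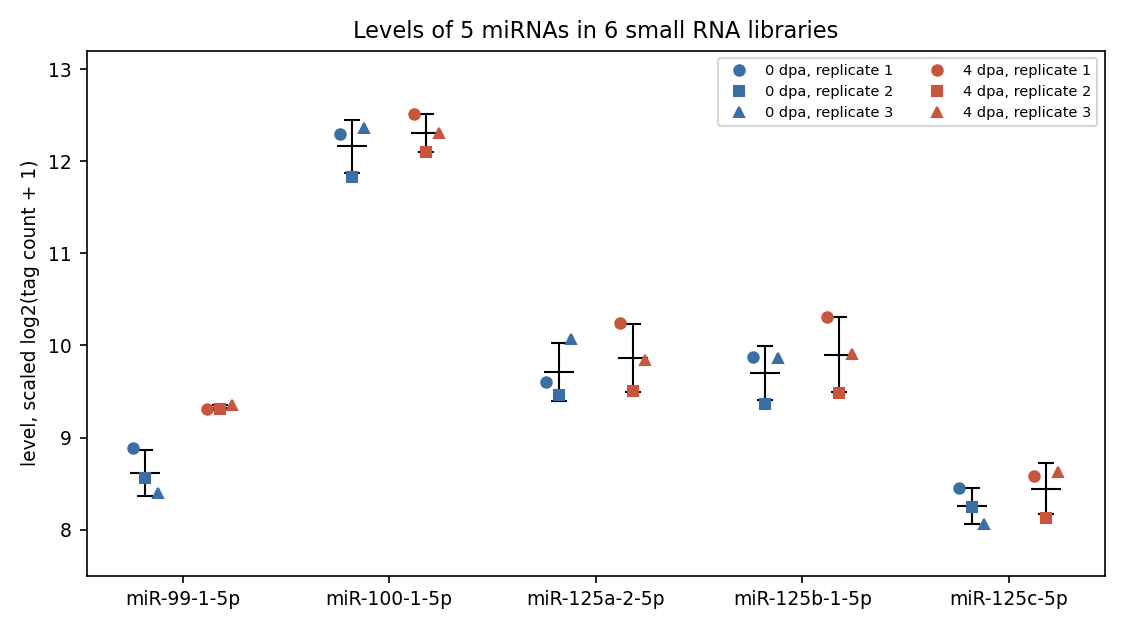
Levels of the 5 miRNAs (vertical axis, scaled log2(tag count + 1)) in each small RNA library of 0 dpa (blue) and 4 dpa (red), with the mean and SD of 3 libraries in black. The 3 libraries of 4 dpa lie above all of 0 dpa for miR-99-1-5p, while for the other 4 miRNAs the days overlap.

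To ask which of the 5 differed between the uninjured and the regenerating fin, 4 dpa was compared with 0 dpa by limma, and the Benjamini-Hochberg adjustment of p-values took in all 148 miRNAs. miR-99-1-5p was upregulated. Its mean levels were 8.61 ± 0.25 at 0 dpa and 9.32 ± 0.03 at 4 dpa (SD, n = 3, at 4 dpa below counting error on the scaled levels). Its log2 fold-change was 0.71 (standard error 0.19, 95% interval 0.27 to 1.15, adjusted p = 0.0174), or 1.64-fold. The other 4 were not called. Thus 1 of 5 was called, and it was called higher, against a background of 42.6% of all 148 miRNAs called, 22.3% higher and 20.3% lower. With that scaling none was called lower by limma or by limma-voom, and only miR-99 had an unadjusted p under 0.05. Scaled to all tags instead, all 5 were called lower by limma, as given below. The levels of the days did not overlap for 1 of the 5, against 55.4% of all miRNAs. The share of the 5 that was called was below the background share, but a count of 1 among 5 does not set them apart from the other miRNAs. In these bulk tissues, a change in the number of cells that make a miRNA and a change in the amount per cell cannot be told apart.

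The call for miR-99 depended on single libraries and on the scaling. Its log2 fold-change stayed between 0.61 and 0.83 when each library was left out in turn, but the adjusted p rose to 0.0615 without replicate 2 of 0 dpa, to 0.0525 without replicate 1 of 4 dpa and to 0.0657 without replicate 3 of 4 dpa, so that no member was then called.

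The log2 fold-changes of the other 4 were close to each other and small beside their intervals. That of miR-125b was 0.20 (95% interval −0.38 to 0.78, adjusted p = 0.595) and that of miR-125c was 0.19 (−0.31 to 0.69, adjusted p = 0.538). For miR-125a it was 0.15 (−0.42 to 0.72, adjusted p = 0.684), and for miR-100 it was 0.14 (−0.31 to 0.60, adjusted p = 0.626). The interval of miR-125b, the widest of them, reaches from 0.767-fold to 1.72-fold, so these data do not tell a fall from a rise within those limits. The median of the 5 log2 fold-changes was 0.19, beside −0.06 for all 148 miRNAs.

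What the tags are scaled to sets the direction for these miRNAs. When libraries were scaled to all tags, the values were −0.73 for miR-99, −1.24 for miR-125b, −1.25 for miR-125c, −1.29 for miR-125a and −1.30 for miR-100, and all 5 were called lower. Under that scaling 104 of the 148 miRNAs were called lower and 7 higher, in place of 30 lower and 33 higher, and the median of all miRNAs moved to −1.5. A change of scaling moves every log2 fold-change by the same amount. The 5 therefore kept their place above the median by construction, which adds no evidence. Without any scaling the split was 46 lower and 3 higher, with a median of −1.09 and none of the 5 called. Scaled to the tags other than miR-21, the fit again called miR-99 alone, with a median of 0.18 over the 5.

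The shares of tags show the same dependence without a model. Summed, the 5 miRNAs took 1.65%, 1.38% and 1.90% of all tags in the libraries of 0 dpa, but 0.909%, 0.491% and 0.715% in those of 4 dpa. These shares did not overlap, with means of 1.64 ± 0.26% and 0.705 ± 0.209% (SD, n = 3), and the share of miR-21 given above moved the other way. Of the tags other than miR-21, the same 5 took 1.89%, 1.55% and 2.08% at 0 dpa and 2.53%, 1.70% and 2.07% at 4 dpa, which overlap, with means of 1.84 ± 0.27% and 2.10 ± 0.42%. By seed, the pair miR-99 and miR-100 held 1.32 ± 0.20% of the tags other than miR-21 at 0 dpa and 1.502 ± 0.246% at 4 dpa. The 3 miR-125 rows held 0.523 ± 0.074% and 0.599 ± 0.170%. Both seeds were thus within the spread between replicates once miR-21 was set aside.

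**Figure D2:**
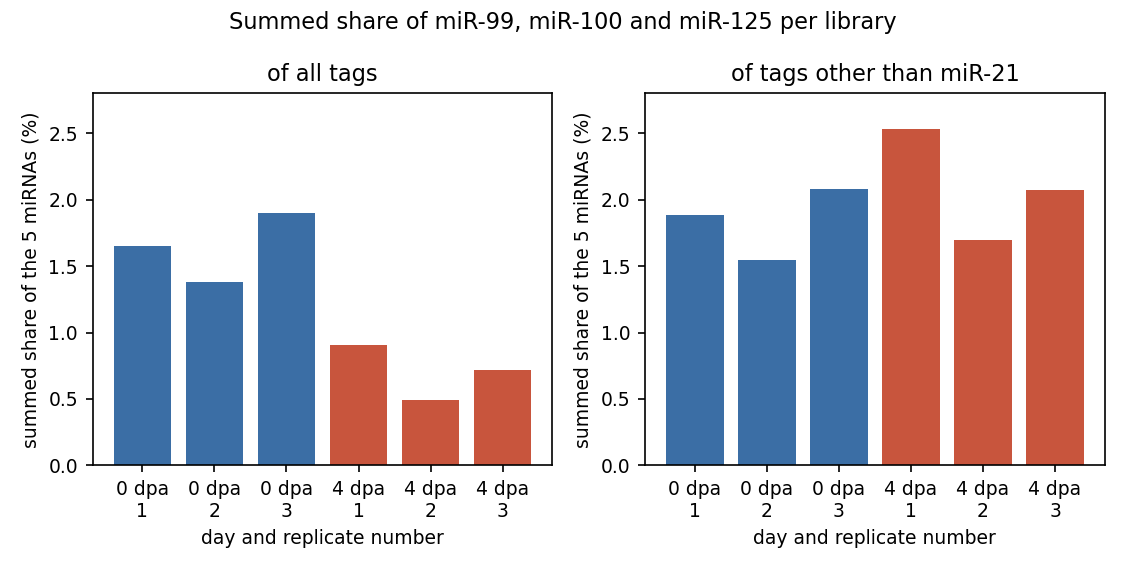
Summed share of the 5 miRNAs (percent, vertical axes from 0) in each library of 0 dpa (blue) and 4 dpa (red), of all tags on the left and of tags other than miR-21 on the right. On the left the 4 dpa libraries lie between 0.491% and 0.909%, below all of 0 dpa; on the right the days overlap.

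The 5 miRNAs were then compared with each other inside each library, since a ratio of 2 miRNAs in the same library does not depend on the scaling. All 10 pairs were tested by a two-sided exact permutation test of 3 libraries against 3, which cannot give a p below 0.1, with p-values adjusted over the 10 pairs. For 2 of the 10 pairs the days did not overlap, both with miR-99, while among all pairs of the 148 miRNAs 52.5% did not overlap.

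The log2 ratio of miR-99 to miR-100, the pair that shares a seed, was −3.41, −3.27 and −3.96 at 0 dpa and −3.20, −2.79 and −2.95 at 4 dpa. Every value of 4 dpa was above every value of 0 dpa, and the mean was higher by 0.57 (exact p = 0.1, adjusted p = 0.5), so that miR-99 tags went from 0.0873 to 0.127 per miR-100 tag. The log2 ratio of miR-99 to miR-125c, whose genes lie in the same group of neighbours, was 0.43, 0.31 and 0.34 at 0 dpa and 0.73, 1.18 and 0.73 at 4 dpa. These also did not overlap, with a mean difference of 0.52 (exact p = 0.1, adjusted p = 0.5). miR-125b also has a gene in a group with a miR-99 gene. Against miR-125b and miR-125a the mean ratio of miR-99 was higher at 4 dpa by 0.51 and 0.56. For both, the libraries of the days overlapped (exact p = 0.3 for each, adjusted p = 0.75).

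The 6 ratios that leave out miR-99 differed by at most 0.0548 between the days on the log2 scale, and each overlapped (exact p of 0.7 to 1, adjusted p = 1). miR-125b and miR-100 have genes that are neighbours in 2 of the 6 groups. Their log2 ratio was −2.42, −2.46 and −2.49 at 0 dpa and −2.21, −2.61 and −2.40 at 4 dpa, or 0.182 and 0.190 miR-125b tags per miR-100 tag on average. The SD of this ratio at 0 dpa, 0.04, was the lowest among the 10 pairs on that day, while at 4 dpa its SD was 0.20. The ratio of miR-125b to miR-125c, which differ by 1 base, was 1.45 ± 0.34 at 0 dpa and 1.46 ± 0.24 at 4 dpa.

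As a description over the 6 libraries of both days, where 2 miRNAs measured in the same library share its depth and day, the levels of miR-125b and miR-100 had a Pearson r of 0.95, those of miR-125b and miR-125a 0.87, and those of miR-125a and miR-100 0.85. For miR-99 the r with the other 4 ranged from 0.10 for miR-125a to 0.62 for miR-125c. Replicate 1 of 4 dpa had the highest level of miR-100, miR-125a and miR-125b among the 6 libraries, and replicate 2 of 0 dpa the lowest of each. With replicate 1 of 4 dpa left out, the log2 fold-change of miR-125a was −0.025 in place of 0.15. Without replicate 2 of 0 dpa, that of miR-100 was −0.024 in place of 0.14.

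**Figure D3:**
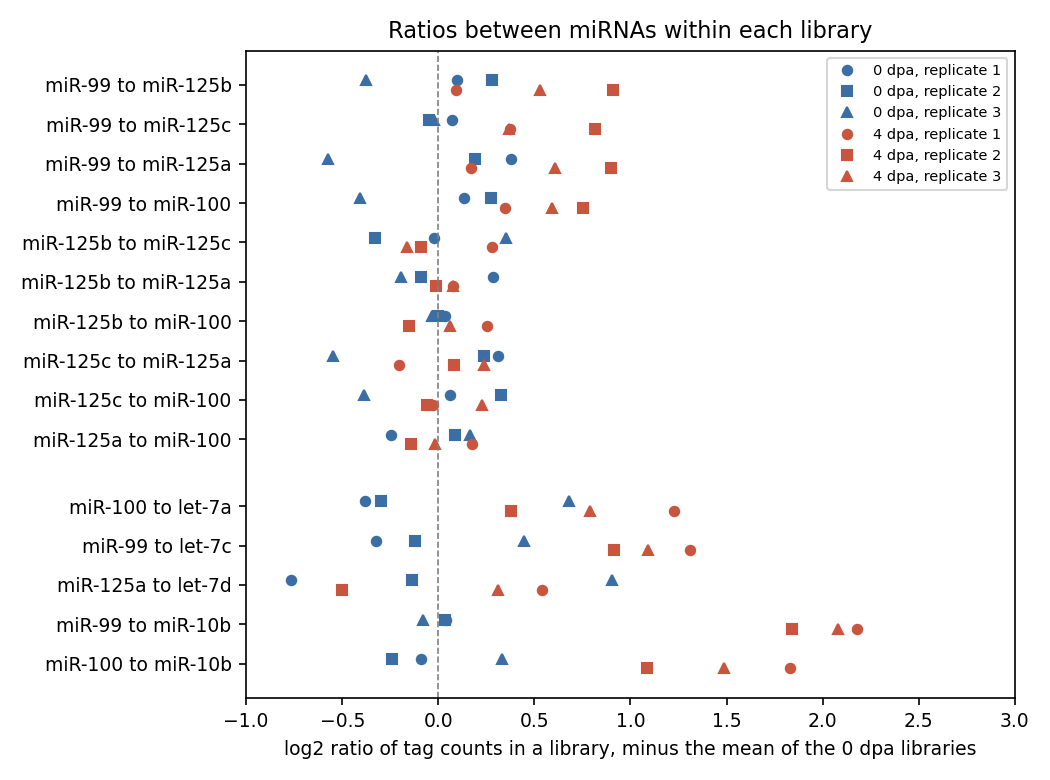
Log2 ratios of tag counts within each library (horizontal axis, minus the mean of the 0 dpa libraries of that pair), for the 10 pairs among the 5 miRNAs and below them the 5 ratios to let-7 and miR-10 rows. Libraries of 4 dpa (red) lie to the right of all 0 dpa libraries (blue) for miR-99 to miR-125c, miR-99 to miR-100, miR-99 to let-7c, and both ratios to miR-10b.

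The families set beside the 5 were let-7, whose genes lie beside theirs, and miR-10, the relative of miR-99 and miR-100. Of the 9 let-7 rows 1 was called higher and none lower, beside 22.3% of all 148 miRNAs called higher and 20.3% lower. The median log2 fold-change of the let-7 rows was 0.04, and 2 unadjusted p-values were under 0.05. The called row was let-7j, at 1.16 (adjusted p = 0.0015), and no let-7j gene lies beside one of the 5. The rows for the neighbouring let-7 genes were let-7a at −0.65 (95% interval −1.24 to −0.07, adjusted p = 0.0706), let-7c at −0.39 (adjusted p = 0.347) and let-7d at 0.04 (adjusted p = 0.93). The other 5 let-7 rows lay between −0.12 and 0.62, none of them called. let-7a passed the threshold when rows with few tags were left out (adjusted p = 0.042) and without replicate 3 of 0 dpa (adjusted p = 0.0104), and without that library let-7c passed too (adjusted p = 0.03). let-7f passed, as higher, without replicate 1 of 4 dpa (adjusted p = 0.0491).

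Of the 4 miR-10 rows 2 were called lower and none higher, and all 4 values were below 0, with a median of −0.87. Of all 148 miRNAs 42.6% were called, 22.3% higher and 20.3% lower. miR-10b, which held 49897, 77654 and 27083 tags in the uninjured libraries against 8864, 10361 and 8560 in the regenerate, was downregulated by a log2 fold-change of −1.33 (adjusted p = 0.00037). miR-10c was downregulated by −0.71 (adjusted p = 0.00684), a call lost without replicate 3 of 4 dpa (adjusted p = 0.0514). miR-10a at −1.04 (adjusted p = 0.118) and miR-10d at −0.53 (adjusted p = 0.194) were not called, but miR-10a passed the threshold without replicate 3 of 0 dpa (adjusted p = 0.0324) and without replicate 3 of 4 dpa (adjusted p = 0.0423).

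**Figure D4:**
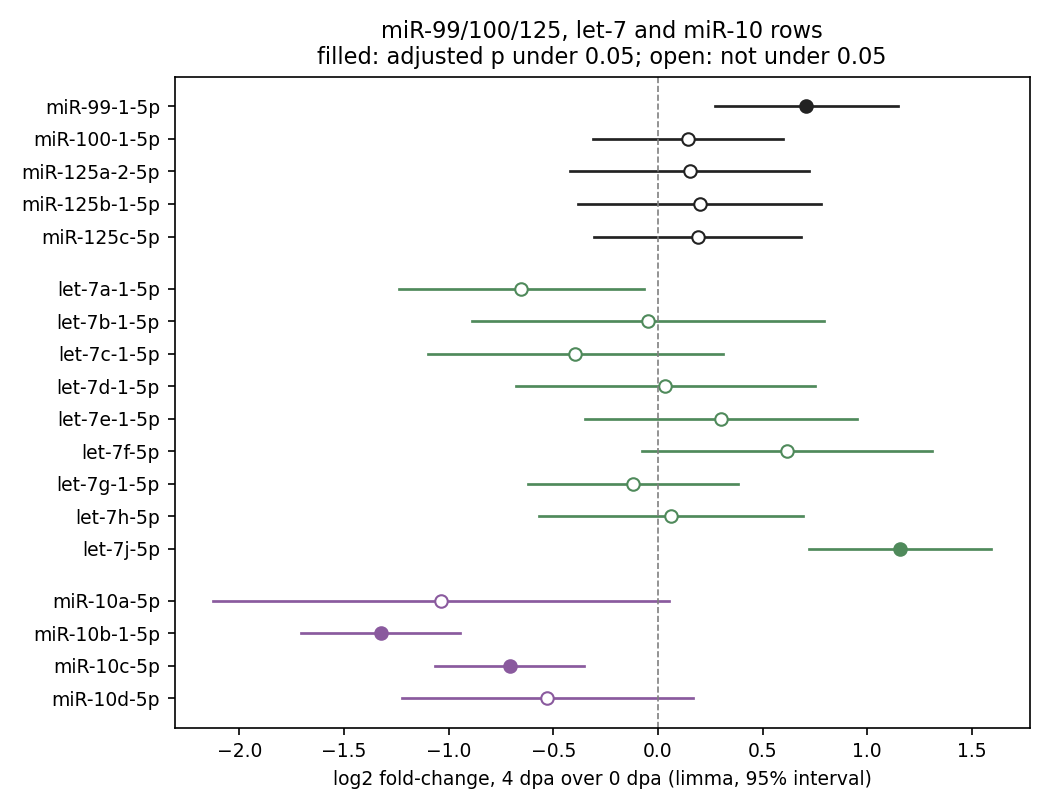
Log2 fold-change of 4 dpa over 0 dpa with its 95% interval from limma (horizontal axis) for the 5 miRNAs in black, the let-7 rows in green and the miR-10 rows in purple, filled where the adjusted p was under 0.05. Among the 5 the interval of miR-99-1-5p alone lies clear of 0. The values of all 4 miR-10 rows lie below 0, while the intervals of miR-10a and miR-10d reach above 0.

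To set the 5 directly beside these families, 5 ratios within a library were added after the values had been seen, and their exact p-values were adjusted over the 5. Each difference between the days is that of 2 log2 fold-changes already given, so these ratios add no independent evidence. miR-99 to miR-10b had log2 ratios of −6.34, −6.35 and −6.46 in the uninjured fin but −4.20, −4.54 and −4.30 in the regenerate. The days lay far apart against their SDs of 0.07 and 0.17, and the ratio was 4.10-fold higher at 4 dpa (exact p = 0.1, the smallest possible, adjusted p = 0.167). miR-100 to miR-10b went from −2.93, −3.08 and −2.51 to −1.005, −1.75 and −1.35, which was 2.77-fold higher without overlap (exact p = 0.1, adjusted p = 0.167). In that pair the log2 fold-change was 0.14 for miR-100 and −1.33 for miR-10b. For miR-99 and let-7c, from the same groups of genes, the log2 ratio went from −1.32, −1.11 and −0.55 to 0.32, −0.08 and 0.10, which did not overlap (difference 1.105, exact p = 0.1, adjusted p = 0.167). For miR-100 and let-7a it was −2.58, −2.49 and −1.52 at 0 dpa and −0.97, −1.82 and −1.41 at 4 dpa, which overlapped (difference 0.80, exact p = 0.2, adjusted p = 0.25). For miR-125a and let-7d the difference was 0.12 (exact p = 0.9, adjusted p = 0.9), with a spread of 0.59 to 2.27 among the 0 dpa libraries alone. No p in this family of ratios could pass 0.05, because 0.1 is the smallest possible. Days that do not overlap are common for such ratios, at 52.5% of all pairs of miRNAs.

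The miRNAs whose levels were most like the summed level of the 5, among 98 others with a mean level of at least 6, were miR-130b-5p with a Pearson r of 0.78, miR-20a-2-5p with 0.70 and miR-731-5p with 0.59. These are descriptions over the 6 libraries of both days, and the values of a library share its depth and day. They are the 3 highest of 98 values and were not tested. The sum mostly follows miR-100, which held 62.6% to 66.8% of the tags of the 5 in every library.

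The mRNA libraries show what the published targets of these miRNAs did in the same comparison. Among mRNAs, 62.1% of the 16951 genes were called, 31.0% higher and 31.2% lower, so a called target is not unusual in itself. Of 12 gene names published as targets of miR-99 or miR-100 in any vertebrate, 8 matched 10 zebrafish genes in the table. Of these 10 genes 6 were called higher and 3 lower, with a median log2 fold-change of 1.06 beside 0.00 for all genes. The higher 6 included MTOR (ENSDARG00000053196), the growth kinase, at 18.7, 18.7 and 18.6 CPM at 0 dpa and 31.6, 30.2 and 34.8 CPM at 4 dpa (log2 fold-change 0.77, adjusted p = 0.000185). Both copies of IGF1R, an insulin-like growth factor receptor, rose. One (ENSDARG00000034434) was at 1.32, 1.25 and 1.71 CPM and then at 7.75, 6.72 and 8.24 CPM (1.84, adjusted p = 1.33e-05), and the other (ENSDARG00000027423) had a log2 fold-change of 1.52 (adjusted p = 8.18e-05).

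The targets named from the zebrafish heart moved in opposite directions. smarca5 (ENSDARG00000052348) was at 47.2, 46.2 and 53.1 CPM at 0 dpa and 127, 104 and 142 CPM at 4 dpa (log2 fold-change 1.34, adjusted p = 5.05e-05). FNTB (ENSDARG00000027916) was at 31.3, 31.0 and 31.1 CPM and then at 22.4, 22.3 and 23.2 CPM (−0.42, adjusted p = 0.00253), a call lost when libraries were scaled to total reads (adjusted p = 0.17). The mitotic kinase plk1 had the highest value of the list at 2.48 (adjusted p = 2.41e-06), followed below IGF1R by the pseudokinase TRIB2 at 1.47 (adjusted p = 2.06e-05). The receptor FGFR3 was lower by −0.44 (adjusted p = 0.0305), a call lost with total-read scaling and with several single libraries left out. The 2 copies of the phosphatase gene CTDSPL differed, with −1.41 (adjusted p = 1.02e-05) for ENSDARG00000071673 and 0.07 (95% interval −0.21 to 0.35, adjusted p = 0.64) for ENSDARG00000062116.

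For miR-125, 12 of 17 published target names matched 15 genes, of which 5 were called higher and 6 lower, with a median of −0.15 that moved to 0.16 without replicate 1 of 0 dpa. The highest were PRDM1 (ENSDARG00000002445), a transcription factor, at 2.17, 1.86 and 1.51 CPM at 0 dpa and 56.8, 56.4 and 63.1 CPM at 4 dpa (log2 fold-change 4.42, adjusted p = 1.88e-07), and the growth factor gene igf2b at 1.94 (adjusted p = 1.39e-05). Then came CBFB, the partner of RUNX factors, at 1.15, the cell cycle transcription factor e2f3 at 0.81 and the transcription factor ETS1 at 0.56, all with an adjusted p of at most 0.00496. The lowest were the growth factor receptors ERBB3 (ENSDARG00000006202) at −1.27, ERBB2 at −1.09 and erbb3b at −0.77, with both copies of the anti-apoptotic gene MCL1 between them, mcl1b at −0.82 and mcl1a at −0.79, all with an adjusted p of at most 0.00884. TRIM71 (ENSDARG00000075593) was at 9.78, 11.0 and 11.3 CPM at 0 dpa and then at 13.4, 10.9 and 12.9 CPM, which overlap (0.21, 95% interval −0.06 to 0.48, adjusted p = 0.147). It was called higher when libraries were scaled to total reads (adjusted p = 0.00788), a scaling that moved the median of all genes from 0.00 to 0.24 and the split of calls to 7518 higher and 3595 lower. The name lin28a matched no gene in the table. Neither list moved in a single direction, and their links to the 5 miRNAs were not tested here.

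**Figure D5:**
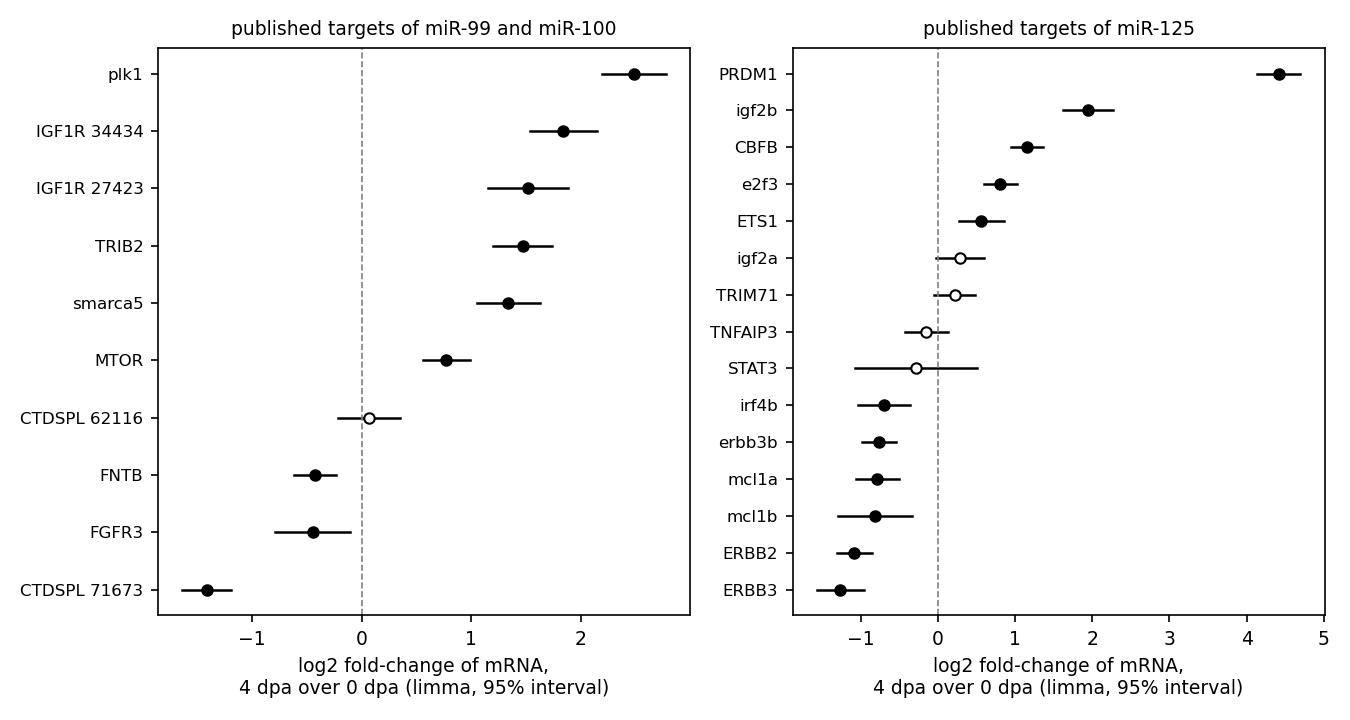
Log2 fold-change of mRNA, 4 dpa over 0 dpa, with its 95% interval from limma (horizontal axes) for zebrafish genes named as published targets of miR-99 and miR-100 (left, 10 genes) and of miR-125 (right, 15 genes), filled where the adjusted p was under 0.05. Copies with the same name carry the last digits of their identifier. Values run from −1.41 for a CTDSPL copy to 2.48 for plk1 on the left and from −1.27 for ERBB3 to 4.42 for PRDM1 on the right.

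Among genes that make or load miRNAs, 12 of 18 names matched 13 genes, of which 6 were called higher and 2 lower, with a median of 0.16. Of all genes 62.1% were called, 31.0% higher and 31.2% lower, so the number called here was near the share over all genes. DROSHA, the nuclease that cuts primary transcripts, had a log2 fold-change of 0.74 (adjusted p = 0.00246). Dicer, which cuts the hairpin, had 0.36 (DICER1, adjusted p = 0.0176) and its partner PRKRA 0.50 (adjusted p = 0.018). DICER1 lost its call in 1 of 11 alternatives (limma adjusted p up to 0.0591) and PRKRA in 2 of 11 (up to 0.0712). The Argonautes differed, with AGO3 at 1.25 (adjusted p = 0.00386) and ago3a at 0.52 (adjusted p = 0.00962) but AGO2 at −0.50 (adjusted p = 0.00211), the last a call lost with total-read scaling (adjusted p = 0.0705). The higher ones were scarce: ago3a lay near the floor at 0.53 to 1.51 CPM over both days, and AGO3 at 1.22 to 8.55 CPM. AGO2 lay at 29.1 to 46.7 CPM. TNRC6C, a silencing cofactor of Argonaute, had −0.76 (adjusted p = 0.000657). Its relatives differed, with tnrc6ba called higher at 0.34 (adjusted p = 0.0218) and TNRC6A not called. Without replicate 3 of 4 dpa, 3 of the 13 genes were called higher and 2 lower. Calls over all 16951 genes fell too, to 4701 higher and 4610 lower from 5249 and 5281.

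Markers of the cell types in the fin were counted on the mRNA side. In 9 marker lists, some with a single matched gene, 28 genes matched, none at 0 in any library, and their counts stand beside the 62.1% of all genes called. All 5 cell division markers were higher at 4 dpa (summed 263 to 284 CPM at 0 dpa and 634 to 673 CPM at 4 dpa), as were 4 of the 5 markers of osteoblasts and actinotrichia (186 to 268 CPM and 8048 to 8963 CPM). All 3 leukocyte markers were lower (247 to 286 CPM and 101 to 123 CPM), as were all 4 Schwann cell markers (52.4 to 55.1 CPM and 4.58 to 6.61 CPM) and the single muscle marker. Of 5 epidermal markers 1 was higher and 2 were lower (45411 to 53240 CPM and 29783 to 35028 CPM). Pigment markers were split, 1 each way of 2, the vessel marker was not called, and of 2 red blood cell markers 1 was higher. The higher pigment marker lay near the floor at 0.46 to 1.42 CPM over both days. So did the higher red blood cell marker at 0.58 to 1.80 CPM, and its days overlapped. Of the listed names, 2 of 4 matched for pigment, 1 of 4 for vessel and 2 of 5 for red blood cells. The part of these differences in the levels of the 5 miRNAs was not tested.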

How the data were processed

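Small RNA and polyA+ mRNA libraries of 0 dpa and 4 dpa fins were analysed, 3 of each kind per day, grouped by their labels. Per the study's methods, the authors clipped and collapsed small RNA reads into tags, matched them to miRBase and to the Zv9 assembly and gave each miRNA its number of tags. The submitters' processing notes also name edgeR, which per the methods the authors used on the tag counts, and Trimmomatic and RSEM, which the methods give for bichir and axolotl reads. Both deposited tables hold log2 values. The small RNA table proved to be log2(tag count + 1), since 2 to the power of each value minus 1 was whole within 0.01 in 100% of cells, although it is named log CPM and the design assumed that. The mRNA table held log2(CPM + 1) for 16951 genes, 13664 of them with a name. Names shared by several copies are given with identifiers, and reads of near-identical copies may have been split.

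Each library was scaled by subtracting a trimmed mean of its log ratios (30% of ratios and 5% of levels trimmed at each end) and fitted with limma 3.58.1 in R 4.3.3 (eBayes with trend, no covariates), with Benjamini-Hochberg adjustment over each whole table and a threshold of 0.05. Adjusted p-values of single miRNAs and genes come from this fit unless another scaling, a filter or a library left out is named with them. One name was left out of the miR-125 target list and is not reported here. Fold-changes of low mRNAs are understated on this scale. Ratios between miRNAs used exact permutation tests. The main fits were also run on simulated data with known changes, which does not show which scaling is right. Alternatives covered scaling, pseudocount, filter, limma-voom, trend, single libraries and a replicate block. The text names all 5 miRNAs, the let-7 and miR-10 rows, genes among the 5 highest or lowest of each target or processing list with a few chosen by name, the tissue markers krt5 and and1, and the 3 miRNAs most like the sum; other genes of a list enter its counts and median. The 5 miRNAs and all lists were chosen with earlier results of these data known. Nothing states that replicates came from separate fish, so p-values measure the spread between these pooled libraries. Sequences came from the study's supplement and gene order from RefSeq. Plots used Python 3.11.15 and Matplotlib 3.10.9.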

Additional observations from a re-analysis of the deposited data

How the results depend on the processing

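Scaling changed the most. With no further scaling 0 of the 5 miRNAs were called (0 also at an unadjusted p under 0.05, and 1 by limma-voom with the main scaling), and 5 of the 13 let-7 and miR-10 rows. Scaled to all tags, 5 of the 5, 12 of those 13 and 111 of the 148 were called. The log2 fold-changes of miR-99, miR-125b, miR-125c, miR-125a and miR-100 then took values below 0: −0.32, −0.83, −0.84, −0.88 and −0.88 without scaling, and −0.73, −1.24, −1.25, −1.29 and −1.30 scaled to all tags. So did let-7f (−0.41 and −0.83), let-7e (−0.73 and −1.14), let-7d (−0.99 and −1.41), let-7h (−0.97 and −1.38) and, scaled to all tags, let-7j (−0.29). The change in the summed share of the 5 was −0.94 percentage points of all tags and 0.26 of tags other than miR-21.

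Leaving out 1 library in turn gave 0 to 1 called of the 5 and 43 to 71 of the 148. For the let-7 and miR-10 rows it gave 3 to 6, and for the 13 miRNA processing genes 5 to 8. Over all 16951 genes, calls ran from 4562 higher and 4536 lower to 5101 higher and 5065 lower. Values that crossed 0 then ran from −0.024 to 0.25 for miR-100, −0.025 to 0.34 for miR-125a, −0.48 to 0.29 for let-7b, −0.30 to 0.052 for let-7g, −0.23 to 0.35 for let-7d, −0.20 to 0.29 for let-7h and −0.034 to 0.16 for CTDSPL (ENSDARG00000062116). Log2 ratios that crossed 0 ran from −0.16 to 0.19 (miR-125b to miR-125c), −0.050 to 0.19 (miR-125b to miR-125a), −0.045 to 0.16 (miR-125b to miR-100), −0.24 to 0.19 (miR-125c to miR-125a), −0.15 to 0.21 (miR-125c to miR-100), −0.12 to 0.088 (miR-125a to miR-100) and −0.27 to 0.57 (miR-125a to let-7d). The 8 ratios with miR-99, or of miR-100 to let-7a or miR-10b, kept their sign.

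With a 2-fold threshold added, 6 of the 10 miR-99 and miR-100 targets were called in either direction. So were 5 of the 15 miR-125 targets and 1 of the 13 processing genes. The 6 included the lower CTDSPL copy (ENSDARG00000071673, −1.41) but not MTOR (0.77), so they are not the 6 called higher above. The share of all genes at that threshold is not given, so these counts have no background here. Scaled to total reads, TNRC6A was at 0.11 in place of −0.18 and tut4 at 0.10 in place of −0.15. With the replicate block 1 of the 5 miRNAs, 57 of the 148 and 3 of the let-7 and miR-10 rows were called. Deviations of same-numbered libraries correlated at −0.43, −0.011 and 0.094 (small RNA) and at 0.15, −0.0044 and 0.15 (mRNA). With 3 libraries a day, such values cannot settle whether replicate numbers pair the libraries. Where the cause of a change is not given by the construction of the alternative, it was not tested. With 3 libraries a day, the intervals given limit the precision.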
